A study of Mus musculus with 2 samples.

Results

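The enzymes that methylate or demethylate histones and DNA, and the histone deacetylases, were taken from an RNA-Seq comparison of 2 stages of brown fat cell differentiation, preadipocytes (D0) and adipocytes (D7). A gene was included when its symbol in the deposited table belonged to 1 of the named families: DNA methyltransferases (Dnmt), TET dioxygenases, histone lysine methyltransferases of the Mll, Setd, Suv39h, Suv420h, Ehmt, Ezh and Dot1l type with the Polycomb subunits Eed and Suz12, arginine methyltransferases (Prmt), lysine demethylases (Kdm) and deacetylases (Hdac). This gave 66 genes of the 23361 with values, in a table of 27324 rows. The rule used the symbols and no measured value. Each stage was represented by 1 library, prepared from total RNA of C57BL/6 cells that had been isolated from brown fat between the shoulder blades of newborn mice. By the labels, the cells were plated before day 0 in medium with insulin at 0.1 μM and T3 at 1 nM, and the D7 cells had then received the inducers IBMX at 0.5 mM, dexamethasone at 2 μg/ml and indomethacin at 0.125 mM for 2 days. The methods of the paper differ from the labels: they name insulin and T3 from day 0 on, and lower doses of insulin and dexamethasone. The labels call the cells primary cultures, whereas the methods of the paper say that they were immortalized with large T antigen, and these methods name pups of either sex without saying whether cells of different pups were pooled.

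Methyl groups on histone lysines and arginines mark chromatin as active or silent according to the residue, and each mark is set by methyltransferases and taken off by demethylases. Deacetylases remove acetyl groups from histones and usually act within corepressor complexes. DNA methylation is copied to new strands by Dnmt1, set on unmethylated DNA by Dnmt3a and Dnmt3b, and oxidized by the TET enzymes as the first step of its removal. Several of these enzymes, among them Ehmt2, Ezh2, Prmt5, Kdm1a and Hdac3, are known for parts in adipocyte differentiation or thermogenic gene expression.

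Levels are given in FPKM (fragments per kb of transcript, scaled to the total of the library) as deposited, and changes as the ratio of the D7 value to the D0 value. With 1 library per stage there was no replicate error and no test between the stages. The number of fragments behind each value was recovered from the FPKM values, and the exact 95% interval given with a ratio covers counting error only and compares the 2 libraries. A gene was called higher at a ratio of at least 2.0 and lower at a ratio of at most 0.5.

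The recovered depth, fitted as the denominator of the FPKM values, was 21381693 fragments in the D0 library and 18234859 in the D7 library. The numbers of mapped reads that the paper gives differ less between the libraries. The markers of brown adipocytes Fabp4, Adipoq, Plin1 and Pparg were higher at D7, and Ucp1, Cidea and Elovl3 were listed at 0 at D0 and between 4.57 and 34.2 FPKM at D7. Of 6 preadipocyte markers, Pdgfrb and Thy1 were lower at D7, Dlk1 and Cd34 were higher, and Pdgfra and Ly6a lay between the thresholds. Of 15 proliferation markers, 14 were lower at D7 and their summed level was 173 FPKM at D0 and 66.1 FPKM at D7. Of 11 macrophage markers, 10 were higher at D7 and their summed level was 155 FPKM at D0 and 583 FPKM at D7. Endothelial markers summed to 1.58 FPKM at D0 and 2.62 FPKM at D7, with Pecam1 at 1 fragment in each library. In bulk RNA, fewer cells of a type and less RNA per cell cannot be told apart. The part of dividing cells and of macrophages in the values below was not tested.

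The libraries also differed in a marker of sex. Xist, the RNA that coats the inactive X chromosome of female cells, had 2 fragments at D0 and 7364 at D7, or 22.7 FPKM. The D7 level was 2879 times the FPKM that 3 fragments would give at D0. Genes of the Y chromosome were present in both libraries, with Ddx3y at 11.0 and 13.1 FPKM, Eif2s3y at 16.7 and 12.1 FPKM and Uty at 3.34 and 3.03 FPKM. The sex chromosomes encode 6 of the enzymes, Hdac6, Hdac8, Kdm5c, Kdm6a and Suv39h1 on X and Kdm5d on Y. Their values are therefore given with the difference in Xist beside them. For them, a change with differentiation and a different mixture of male and female cells cannot be told apart. If the libraries came from different animals or cultures, that difference would go with stage for all enzymes, the autosomal ones included. A part of such a difference in the autosomal values was not tested.

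Of the 66 enzymes, 65 were above 0 in both libraries. The exception was Prmt8, an arginine methyltransferase known from neurons, with 1 fragment at D0 and 0 at D7. At least 1 FPKM was reached by 58 enzymes at D0 and by 58 at D7, which were not all the same genes. Called higher at D7 were 5 enzymes, Kdm6a, Tet2, Suv420h2, Dnmt3a and Hdac9, beside 18.5% of the 14986 genes above 0 in both libraries. Called lower at D7 were 5 enzymes, Prmt1, Dnmt1, Kdm5d, Prmt2 and Prmt3, beside 13.2% of all genes. As shares of the 65 enzymes both counts lay under those backgrounds. The other 55 enzymes lay between the thresholds, which bounded a smaller part of all genes, 10239 of 14986.

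The enzymes were divided almost evenly around a ratio of 1, with 33 above and 32 below in the values as deposited. Of all genes above 0 in both libraries, 7585 were above and 7401 below. With values under 0.01 FPKM set to 0.01 and each library divided by its median, 71.2% of the enzymes were lower at D7. Under this scaling 13 were called lower and 3 higher, and the log2 median of all genes moved by −0.37. The shares of all genes called under it are not given here, so these counts have no background beside them. In the values as deposited, the median ratio of the enzymes was 1.00, and that of all genes was 1.01. The middle part of their log2 ratios ran from −0.53 to 0.43, against −0.55 to 0.69 for all genes. Where only genes of at least 1 FPKM in a library were counted, 4 enzymes were higher and 5 lower among 59, and 1870 genes were higher and 1430 lower among 11967. The counting interval left out 1 for 49 enzymes, of which 25 were above 1 and 24 below, so many of the smaller differences were larger than counting error although no replicate could be set against them. The uncalled enzymes closest to the thresholds were Hdac6 with a ratio of 0.506, and Ezh1 and Kdm4d with ratios of 1.96 and 1.88.

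**Figure D1:**
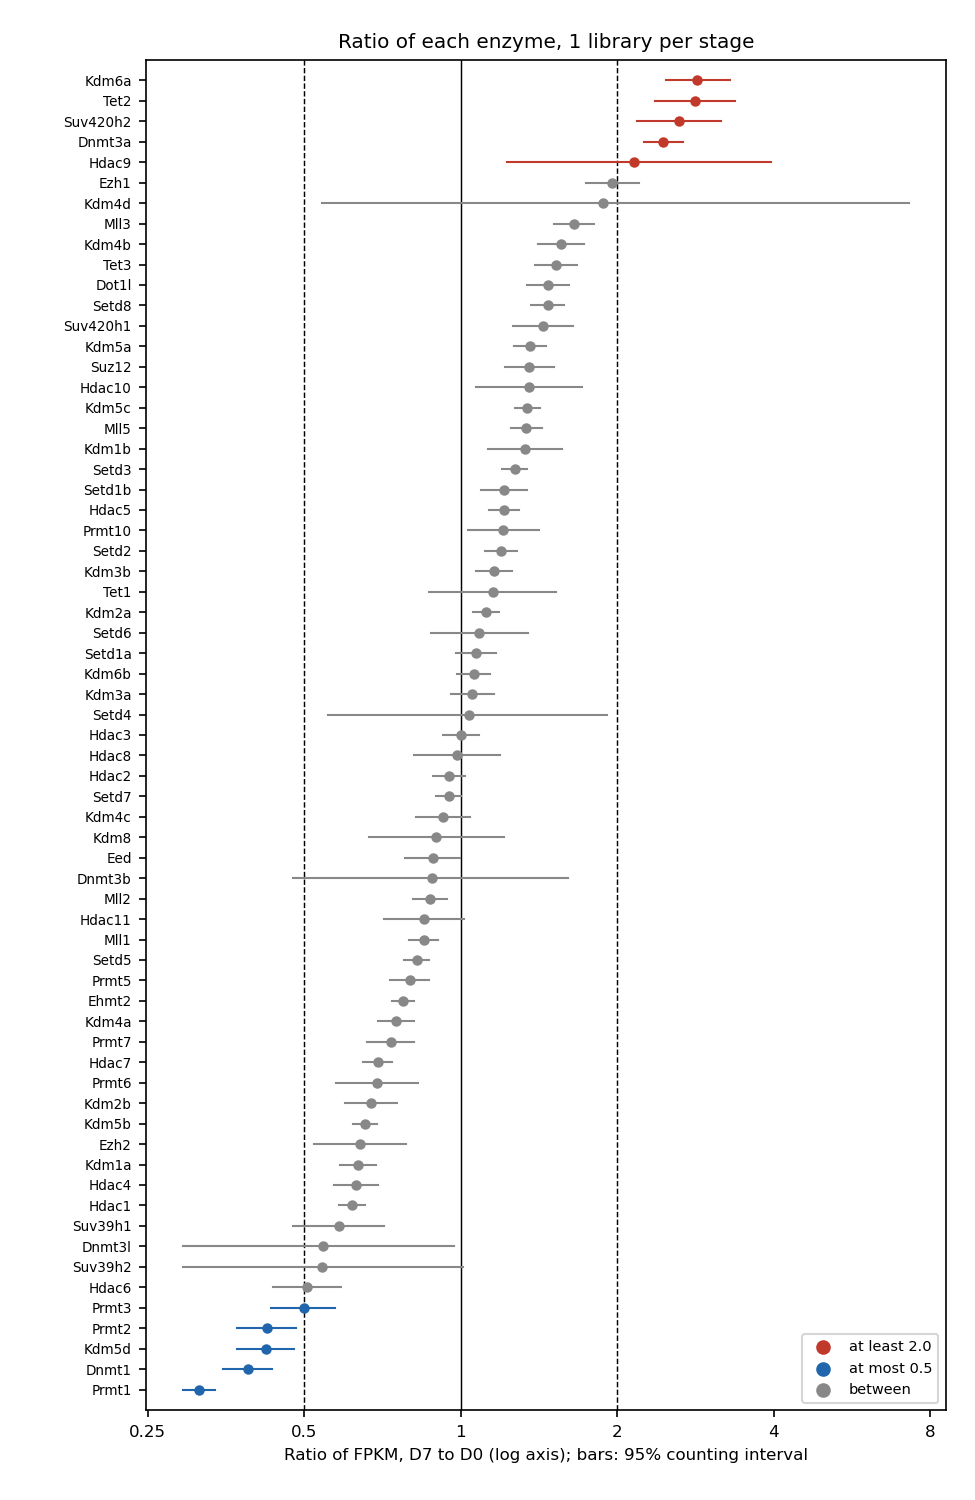
Ratio of FPKM at D7 to FPKM at D0 (horizontal log axis, no unit) for each of the 65 enzymes above 0 in both libraries, ordered by ratio, with bars for the 95% counting interval and dashed lines at 0.5 and 2. Kdm6a at 2.85 stands at the top and Prmt1 at 0.314 at the bottom, and the widest bar belongs to Kdm4d, which had 5 and 8 fragments.

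The arginine methyltransferases were lower at D7 more than any other family by summed level. Of the 7 members above 0 in both libraries, 6 had a ratio below 1, beside 49.4% of all genes. Called lower were 3, beside 13.2% of all genes. The summed level of the family was 213 FPKM at D0 and 97.1 FPKM at D7, of which Prmt1 alone made up 127 and 39.7 FPKM. Prmt1 is the main enzyme of asymmetric arginine dimethylation and methylates histone H4 among many proteins. Its transcript NM_019830, at chr7:44975989-44986568 on the minus strand (GRCm38, mm10), had 127 FPKM at D0 and 39.7 FPKM at D7, a 3.19-fold lower level (ratio 0.314, 95% interval 0.292 to 0.337). At D0 it was the most abundant of all 66 enzymes, and at D7 it was in the fourth place.

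Prmt2, a weaker arginine methyltransferase known as a coactivator of nuclear receptors (NM_001077638, chr10:76207222-76237865, minus strand), had 21.8 FPKM at D0 and 9.23 FPKM at D7, a ratio of 0.424 (0.372 to 0.483). Prmt3, a cytosolic enzyme that methylates a protein of the small ribosomal subunit (NM_133740, chr7:49778346-49858265, plus strand), had 13.6 and 6.77 FPKM, a ratio of 0.499 (0.432 to 0.573). This value lay at the threshold itself, and the call was lost when a pseudocount of 0.1 FPKM was added.

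The remaining arginine methyltransferases changed less. Prmt5, the main enzyme of symmetric dimethylation, had 25.2 FPKM at D0 and 20.1 FPKM at D7 (ratio 0.798, 0.733 to 0.868). Prmt7, which adds single methyl groups, had a ratio of 0.733 and Prmt6, which methylates histone H3, a ratio of 0.691, both with intervals below 1. Prmt10, now named Prmt9, was the only one of the 7 with a ratio above 1, at 5.73 and 6.91 FPKM (1.21, 1.03 to 1.41). Relative to Prmt5, Prmt1 was 5.02 times as abundant at D0 and 1.98 times at D7.

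The upstream sequences of the 3 called arginine methyltransferases are shown because all of them held the same pair of short letter strings, CCAAT and GGGCGG (the CCAAT box and the GC box), and that of Suv420h2 because it was the only called enzyme with letters of an E2F site before the start site used. Dnmt3a is shown as a higher gene with several GC boxes and no CCAAT. The sequences are from RefSeq promoters of GRCm38.p6, read 5′ to 3′ on the strand of the gene. Each was ended before any annotated exon that overlapped its window. The window of Dnmt3a lies inside the annotated gene, which starts upstream of it at chr12:3806007. Capitals mark the letters CCAAT of the CCAAT box, those of the GC box, GGGCGG, and the E2F letters TTTGGCGC, TTTCCCGC, TTTCGCGC or TTTGCCGC, or their reverse complements.
Prmt1 (chr7:44986569-44986670, minus strand): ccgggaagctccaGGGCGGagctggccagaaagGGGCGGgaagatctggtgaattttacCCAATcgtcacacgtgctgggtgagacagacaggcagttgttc
Prmt2 (chr10:76237866-76238115, minus strand): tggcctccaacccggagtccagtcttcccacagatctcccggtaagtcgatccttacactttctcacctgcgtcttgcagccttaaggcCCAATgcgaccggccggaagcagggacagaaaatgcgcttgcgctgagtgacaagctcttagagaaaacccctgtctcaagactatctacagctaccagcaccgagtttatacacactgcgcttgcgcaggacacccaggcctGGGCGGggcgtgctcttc
Prmt3 (chr7:49778108-49778345, plus strand): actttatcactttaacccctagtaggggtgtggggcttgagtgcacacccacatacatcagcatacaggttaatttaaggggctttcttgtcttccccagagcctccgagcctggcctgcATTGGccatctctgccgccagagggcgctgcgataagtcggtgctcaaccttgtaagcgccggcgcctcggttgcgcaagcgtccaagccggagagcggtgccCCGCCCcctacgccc
Suv420h2 (chr7:4739877-4740114, plus strand): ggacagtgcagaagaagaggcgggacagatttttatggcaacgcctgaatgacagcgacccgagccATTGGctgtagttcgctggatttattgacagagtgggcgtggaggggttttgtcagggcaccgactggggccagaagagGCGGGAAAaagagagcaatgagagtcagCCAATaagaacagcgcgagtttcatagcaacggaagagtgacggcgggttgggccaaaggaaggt
Dnmt3a (chr12:3806730-3806979, plus strand): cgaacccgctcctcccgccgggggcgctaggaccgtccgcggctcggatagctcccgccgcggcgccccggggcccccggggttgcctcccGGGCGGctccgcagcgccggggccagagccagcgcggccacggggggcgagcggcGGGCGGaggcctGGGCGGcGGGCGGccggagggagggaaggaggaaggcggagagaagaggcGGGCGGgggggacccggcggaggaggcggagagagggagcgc

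Over the 56 enzymes with a RefSeq promoter, searched on both strands in the 250 bases before the start site, CCAAT was found in 22 (39.3%) and in 33.8% of all 32851 promoters. GGGCGG was found in 36 (64.3%) and in 32.7% of all promoters. Both were found in 13 enzymes (23.2%) and in 11.0% of all promoters, and 10 of these 13 enzymes were not called. The E2F letters were found in 2 enzymes (3.57%) and in 1.86% of all promoters. The observed to expected ratio of CpG, a measure of CpG islands, had a median of 0.774 in the enzymes and 0.373 over all promoters, and it reached 0.6 in 47 of the 56. A match is a description of letters and not a binding site. For Dnmt1, the start site of the named transcript had none of the 3 strings, while CCAAT was present before both other RefSeq start sites of that gene and E2F letters before 1 of them, so its count depended on the start site used.

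Among the DNA methyltransferases, Dnmt1 and Dnmt3a differed in opposite directions. Dnmt1, the maintenance enzyme that follows DNA replication (NM_010066, chr9:20907209-20959888, minus strand), had 12.4 FPKM at D0 and 4.83 FPKM at D7, a ratio of 0.390 (0.349 to 0.433). Dnmt3a, a de novo enzyme (NM_007872, chr12:3806007-3914443, plus strand), had 3.81 and 9.36 FPKM, a ratio of 2.45 (2.25 to 2.68), which was 1.92 and no longer called with the floor of 0.01 FPKM and each library divided by its median. Dnmt1 was thus 3.25 times as abundant as Dnmt3a at D0 and 0.516 times as abundant at D7, so the order of these enzymes was exchanged between the libraries. The 14 lower proliferation markers moved in the direction of Dnmt1, and a part of dividing cells in its value was not tested.

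The other members of this family were scarce. Dnmt3b, the second de novo enzyme, had 0.312 FPKM at D0 and 0.275 FPKM at D7, with 28 and 21 fragments, and its interval of 0.475 to 1.61 included 1. Dnmt3l, a cofactor without catalytic activity, had 1.22 and 0.663 FPKM from 39 and 18 fragments (0.544, 0.292 to 0.972). Its exons overlap those of Aire on the opposite strand, and although the second strand was degraded during library preparation, the use of strand in counting is not given in the sources used here, so the 2 genes may share reads. An antisense gene, Dnmt3aos, likewise overlaps exons of Dnmt3a. Other enzymes also have exons that overlap genes on the opposite strand. Among them are Hdac7 (Slc48a1), Kdm5a (Ccdc77), Mll5 (Srpk2), Kdm2b (Rnf34), Prmt7 (Smpd3) and Suv39h2 (Dclre1c), and the same limit holds for their values.

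Of 16 partners of DNA methylation and genes of base removal, 5 were called lower and 0 higher, beside 13.2% and 18.5% of all genes. Uhrf1, which brings Dnmt1 to newly copied DNA, had 5.76 FPKM at D0 and 0.861 FPKM at D7 (0.149, 0.110 to 0.201). Hells, a remodeller needed for DNA methylation, had 2.12 and 0.502 FPKM (0.237, 0.173 to 0.321). The stress genes Gadd45b and Gadd45g were also lower, with ratios of 0.420 and 0.453, while Gadd45a had a ratio of 1.55, and Cxxc4 had only 23 and 8 fragments. The methyl-CpG binding domain genes Mbd1 and Mbd2 had ratios of 1.11 and 1.16, Mbd4 a ratio of 0.953 and Mbd3 a ratio of 0.634 (0.588 to 0.684), and Uhrf2, the paralogue of Uhrf1, had 23.9 and 22.5 FPKM.

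All 3 TET dioxygenases had a ratio above 1 as deposited (Tet1 was below 1 when each library was divided by its median), and their summed level was 4.83 FPKM at D0 and 8.46 FPKM at D7. Tet2 (NM_001040400, chr3:133463679-133545139, minus strand) had 0.942 FPKM at D0 and 2.66 FPKM at D7, a ratio of 2.82 (2.37 to 3.38), which was 1.88 and no longer called with a pseudocount of 1 FPKM. Tet3 had 3.53 and 5.40 FPKM (1.53, 1.39 to 1.68) and remained the most abundant of them. Tet1, best known from embryonic stem cells, had 0.355 and 0.410 FPKM, with an interval of 0.868 to 1.52 that included 1. Tet2 is also abundant in myeloid cells, and 10 of 11 macrophage markers were higher at D7. A part of macrophages in the Tet2 value was not tested.

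All 3 methyltransferases of histone H4 lysine 20 were likewise above 1, with a summed level of 34.7 FPKM at D0 and 55.4 FPKM at D7. Suv420h2, now Kmt5c, which turns the single methyl group into di- and trimethylation (NM_146177, chr7:4740115-4747514, plus strand), had 3.99 and 10.5 FPKM, a ratio of 2.64 (2.19 to 3.16). Suv420h1, now Kmt5b, a paralogue with the same reaction, had 6.29 and 9.04 FPKM (1.44, 1.26 to 1.64). Setd8, now Kmt5a, which adds the first methyl group, had 24.4 and 35.9 FPKM (1.47, 1.37 to 1.58). Suv420h1 was 1.58 times as abundant as Suv420h2 at D0 and 0.861 times at D7.

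The H3K9 methyltransferases all had ratios below 1, with none past the threshold. Ehmt2 (also known as G9a), which sets mono- and dimethylation, was the most abundant, with 48.9 FPKM at D0 and 37.9 FPKM at D7 (0.775, 0.737 to 0.814). Suv39h1, a trimethylating enzyme of heterochromatin encoded on the X chromosome, had 4.74 and 2.76 FPKM (0.582, 0.476 to 0.713). Its paralogue Suv39h2 had 0.409 and 0.222 FPKM from 36 and 17 fragments, and its interval of 0.292 to 1.01 included 1. The shift of Suv39h1 relative to Suv39h2 was 1.07 (0.554 to 2.07), so a difference between these paralogues was not detectable at this depth.

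Within Polycomb repressive complex 2, which sets H3K27 methylation, the alternative catalytic subunits differed in direction, with neither past a threshold. Ezh2, the form usual in dividing cells, had 4.96 FPKM at D0 and 3.17 FPKM at D7 (0.640, 0.522 to 0.784). Ezh1, the form usual in resting cells, had 5.38 and 10.5 FPKM (1.96, 1.74 to 2.20). Ezh1 was 1.09 times as abundant as Ezh2 at D0 and 3.32 times at D7, a shift of 3.06 (2.42 to 3.88). Ezh2 and all 15 proliferation markers had ratios below 1, and a part of dividing cells in this shift was not tested. Of the subunits shared by Ezh1 and Ezh2, Eed had 15.5 and 13.7 FPKM (0.884, 0.783 to 0.997) and Suz12 had 7.00 and 9.48 FPKM (1.36, 1.22 to 1.51).

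Of 21 further Polycomb proteins, 2 were called higher and 1 lower. Jarid2, which guides the complex to its targets, had 2.19 FPKM at D0 and 5.42 FPKM at D7 (2.47, 2.11 to 2.91). Cbx7, a reader of the mark, had 0.601 and 2.06 FPKM (3.43, 2.31 to 5.18). Phc2, a structural protein of the other Polycomb complex, had 45.3 and 20.9 FPKM (0.461, 0.433 to 0.490). The median ratio of the list was 0.825, and 12 of its 21 genes were below 1.

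None of the genes grouped here as H3K4 methyltransferases passed a threshold. Mll3, now Kmt2c, which acts at enhancers, had the largest ratio of them, with 2.73 FPKM at D0 and 4.52 FPKM at D7 (1.65, 1.51 to 1.80). Mll5, now Kmt2e, which was placed here by its symbol and not by its activity, had 10.1 and 13.5 FPKM (1.34, 1.25 to 1.43). Mll1 and Mll2, now Kmt2a and Kmt2d, were slightly below 1 at 0.850 and 0.874, with intervals that left out 1. Setd1b had a ratio of 1.21 (1.10 to 1.34) and Setd1a, its paralogue, 1.07 with an interval of 0.980 to 1.17 that included 1. Among 10 partner subunits of these enzymes, 0 were called in either direction, and the lowest ratio was 0.566 for Ash2l, a core subunit with 26.1 and 14.8 FPKM.

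Dot1l and the other SET domain proteins stayed within the thresholds too. Setd3, which methylates a histidine of actin rather than a histone, had 44.4 FPKM at D0 and 56.3 FPKM at D7 (1.27, 1.20 to 1.34) and was the most abundant enzyme at D7. Dot1l, the H3K79 methyltransferase, which has no SET domain, had 5.64 and 8.31 FPKM (1.47, 1.34 to 1.62). Setd2, the H3K36 trimethylase, had 8.69 and 10.4 FPKM (1.20, 1.11 to 1.29), and Setd5 had 20.9 and 17.2 FPKM (0.823, 0.777 to 0.871). For Setd4, Setd6 and Setd7 the ratios lay between 0.948 and 1.09 with intervals that included 1. Of 15 other lysine methyltransferases, 2 were called higher and 1 lower: Prdm9 at 0.539 and 1.25 FPKM, Smyd1 with 2 and 6 fragments, and Smyd5 at 14.8 and 7.39 FPKM, at the threshold itself.

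**Figure D2:**
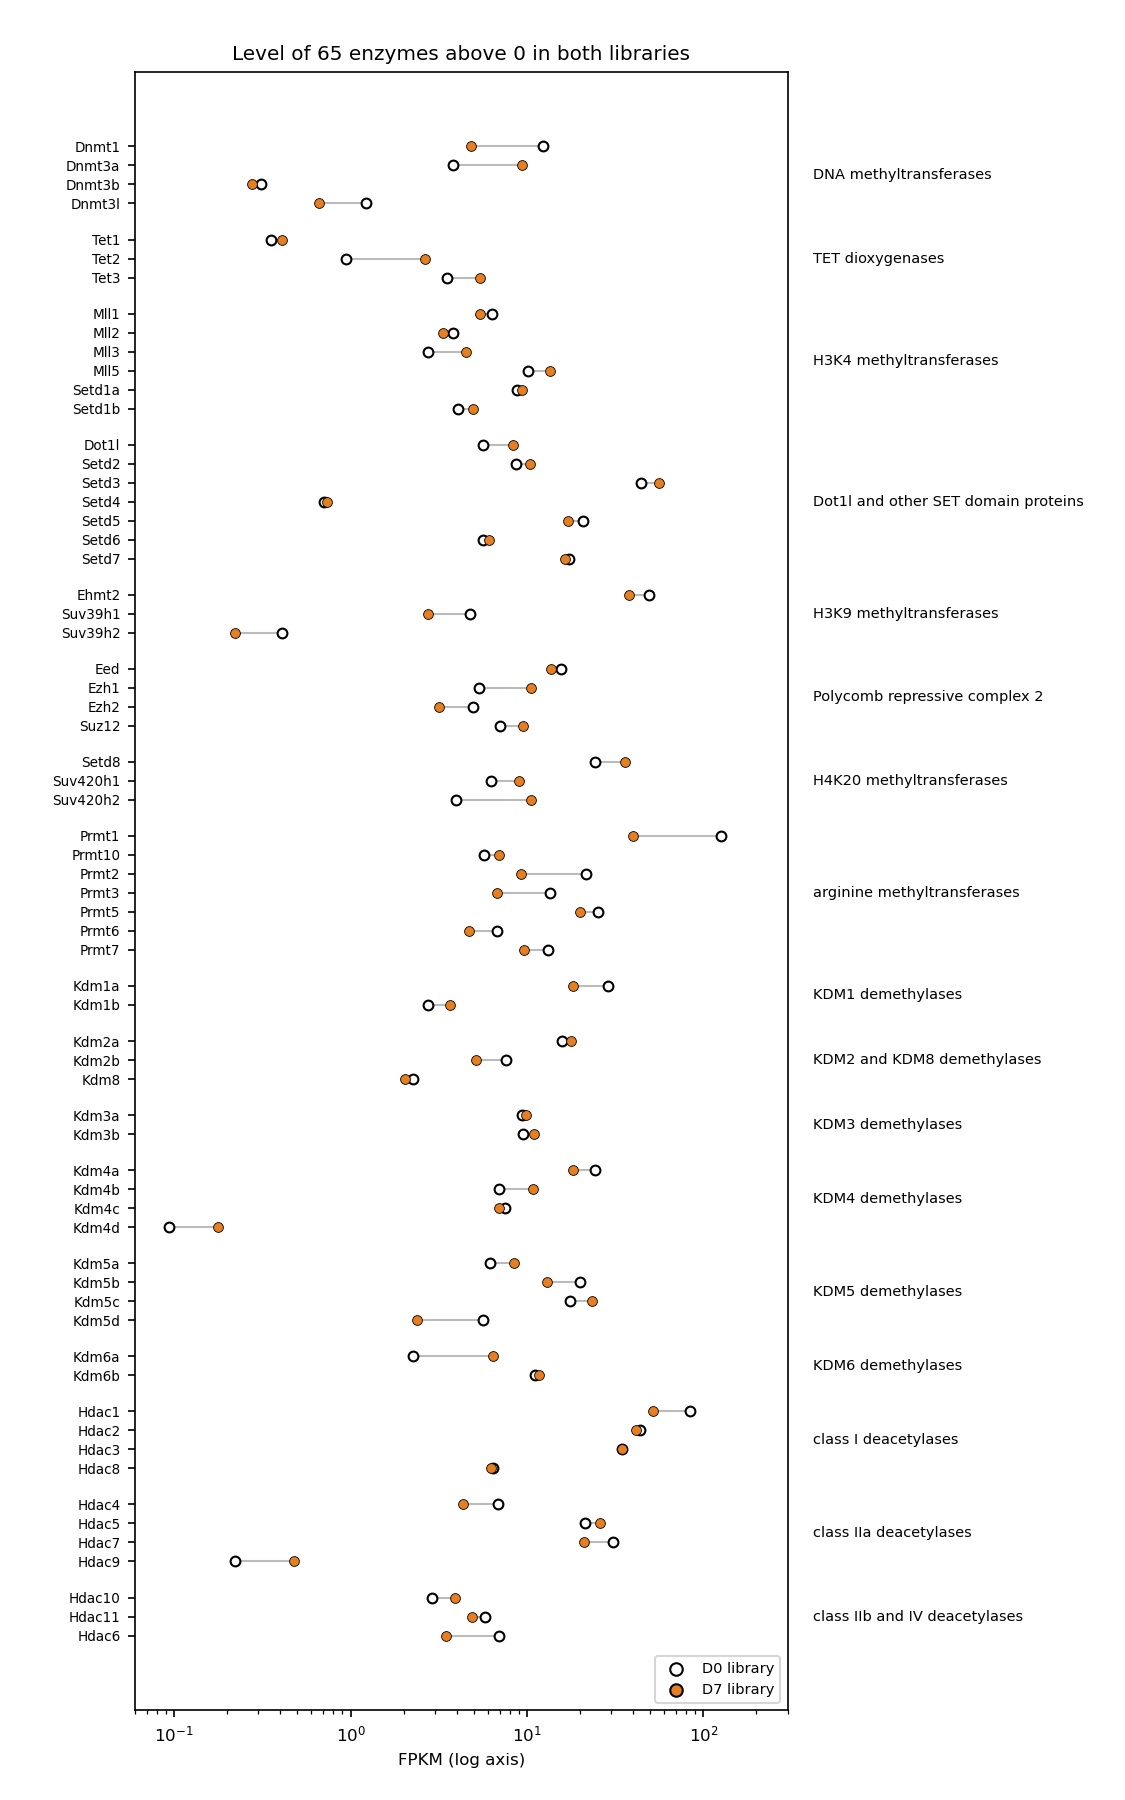
FPKM (horizontal log axis) of the 65 enzymes above 0 in both libraries, grouped by family, with an open circle for the D0 library and a filled circle for the D7 library joined by a line. Prmt1 moves from 127 to 39.7 FPKM, in the values as deposited all circles of the H4K20 and TET families move to the right, and those of the H3K9 family move to the left.

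The lysine demethylases of the KDM1 type, flavin enzymes that act on H3K4, differed in direction. Kdm1a (also known as LSD1) had 28.7 FPKM at D0 and 18.2 FPKM at D7 (0.636, 0.587 to 0.689). Kdm1b had 2.76 and 3.67 FPKM (1.33, 1.13 to 1.57), and its exons overlap those of Dek on the opposite strand. Kdm1a was 10.4 times as abundant as Kdm1b at D0 and 4.97 times at D7.

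Of the H3K36 demethylases, Kdm2a had 15.8 and 17.7 FPKM (1.12, 1.06 to 1.18), a direction that turned to 0.876 with the floor of 0.01 FPKM and each library divided by its median, and Kdm2b had 7.61 and 5.11 FPKM (0.672, 0.598 to 0.754). Kdm8 was near 1 with 107 and 82 fragments. The H3K9 demethylases Kdm3a and Kdm3b had ratios of 1.05 and 1.16, and the shift between them was 0.909 (0.803 to 1.03). Kdm3a is known for regulating Ucp1 and lipid metabolism genes in brown fat, and its levels were 9.34 and 9.85 FPKM.

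Of the KDM4 demethylases, which act on H3K9 and H3K36, Kdm4b had 6.98 FPKM at D0 and 10.9 FPKM at D7 (1.56, 1.41 to 1.73) and Kdm4a had 24.3 and 18.2 FPKM (0.750, 0.693 to 0.812). Kdm4a was 3.48 times as abundant as Kdm4b at D0 and 1.67 times at D7. Kdm4c had a ratio of 0.924 with an interval that included 1. Kdm4d rested on 5 and 8 fragments, and its interval of 0.542 to 7.30 gave no direction.

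The KDM5 and KDM6 demethylases, which act on H3K4 and H3K27, held the calls on the sex chromosomes. Kdm6a (also known as UTX; NM_009483, chrX:18162575-18279936, plus strand) had 2.25 FPKM at D0 and 6.43 FPKM at D7, a ratio of 2.85 (2.48 to 3.30), the highest of all enzymes. Kdm5d (NM_011419, chrY:897788-956786, plus strand) had 5.64 and 2.38 FPKM (0.422, 0.371 to 0.478), and its ratio was 0.509 and no longer called with a pseudocount of 1 FPKM. Kdm5c, its counterpart on the X chromosome, had 17.5 and 23.5 FPKM (1.34, 1.27 to 1.42).

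These values stood beside those of the sex-linked genes that are not enzymes of this kind. Kdm6a and Kdm5c are known to be expressed from both X chromosomes of female mice, as are Ddx3x and Eif2s3x, which had ratios of 1.75 and 1.32. Ddx3y, Eif2s3y and Uty, the Y-linked counterpart of Kdm6a, had ratios of 1.19, 0.725 and 0.907, so Kdm5d was the lowest of these Y-linked genes. The other X-linked enzymes were at 0.506 (Hdac6), 0.983 (Hdac8) and 0.582 (Suv39h1), and 389 genes of the X chromosome had a median ratio of 1.01. Without the enzymes on X and Y, 4 were called higher and 4 lower.

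**Figure D3:**
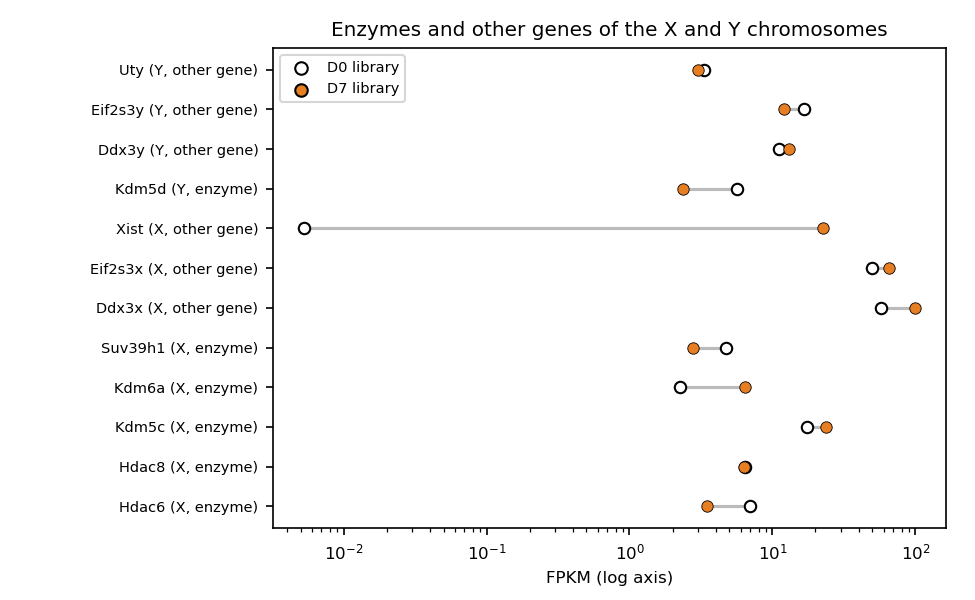
FPKM (horizontal log axis) of the 6 enzymes and of 6 other genes on the X and Y chromosomes, with an open circle for D0 and a filled circle for D7. Xist moves from 0.00525 to 22.7 FPKM, Kdm6a moves to the right and Kdm5d to the left, and the other Y-linked genes lie close to their D0 values.

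The autosomal members of these families were between the thresholds. Kdm5b had 19.9 and 13.0 FPKM (0.655, 0.620 to 0.692) and Kdm5a had 6.22 and 8.46 FPKM (1.36, 1.27 to 1.46), so that Kdm5a went from 0.312 to 0.648 times the level of Kdm5b. Kdm6b, known as an inducible H3K27 demethylase, had 11.1 and 11.7 FPKM (1.06, 0.986 to 1.14). Kdm6a was 0.204 times as abundant as Kdm6b at D0 and 0.548 times at D7.

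Of 10 further demethylases and related proteins of the JmjC type, 2 were called higher and 0 lower, both by more than any of the 66 enzymes. Hr, a corepressor with H3K9 demethylase activity, had 0.369 FPKM at D0 and 9.95 FPKM at D7 (27.0, 19.8 to 37.6). Jhdm1d, also known as Kdm7a, an H3K9 and H3K27 demethylase, had 1.10 and 8.73 FPKM (7.91, 6.88 to 9.18). Jmjd1c had 4.80 and 8.20 FPKM (1.71, 1.57 to 1.86), whereas Jmjd6 had 30.4 and 18.1 FPKM (0.595, 0.533 to 0.665). Of the 10 genes, 6 had a ratio above 1 and 4 a ratio below 1.

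None of the 4 class I deacetylases was called in the values as deposited. Hdac1 had the lowest ratio of them, with 84.2 FPKM at D0 and 52.0 FPKM at D7 (0.617, 0.583 to 0.655), and it was called lower, at 0.484, with the floor of 0.01 FPKM and each library divided by its median. Hdac2, its partner in the same complexes, had 43.9 and 41.7 FPKM (0.95, 0.884 to 1.02), and Hdac3, the enzyme of the nuclear receptor corepressors, had 34.7 and 34.8 FPKM (1.00, 0.927 to 1.09). Hdac8, encoded on the X chromosome, had 6.39 and 6.28 FPKM. Hdac1 was 1.92 times as abundant as Hdac2 at D0 and 1.25 times at D7.

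The class IIa deacetylases, which bind MEF2 factors and have weak activity of their own, had 1 of 4 members called higher and 0 lower. Hdac4 had 6.89 FPKM at D0 and 4.34 FPKM at D7 (0.629, 0.570 to 0.694), and Hdac7 had 30.6 and 21.2 FPKM (0.693, 0.650 to 0.739). Hdac5 had 21.4 and 26.0 FPKM (1.21, 1.13 to 1.30), a direction that turned to 0.95 with the floor of 0.01 FPKM and each library divided by its median. Hdac9 (NM_024124, chr12:34047580-34917095, minus strand) was called higher from 0.221 to 0.478 FPKM, but this rested on 20 and 37 fragments (2.16, 1.23 to 3.95) and the call was lost with a pseudocount of 0.1 FPKM. Hdac7 was the most abundant of them at D0 and Hdac5 at D7.

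In classes IIb and IV, Hdac6, a cytoplasmic enzyme that deacetylates tubulin and is encoded on the X chromosome, had 6.92 and 3.50 FPKM (0.506, 0.436 to 0.588). Hdac10, a polyamine deacetylase, had 2.89 and 3.91 FPKM (1.35, 1.07 to 1.71). Hdac11, the only class IV enzyme, had 5.75 and 4.90 FPKM, with an interval of 0.713 to 1.02 that included 1. Of 23 genes of corepressor complexes and MEF2 factors, 1 was called higher and 2 lower: Mef2c at 0.800 and 1.70 FPKM, Sap30 at 3.85 and 1.70 FPKM, and Chd3 at 53.9 and 23.9 FPKM. Ncor1, a nuclear receptor corepressor that binds Hdac3, had a ratio of 1.40 (1.34 to 1.46).

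Paralogues were compared within each library, so that any scaling between the libraries cancelled. Of 19 pairs, the interval of the shift left out 1 in all except Suv39h1 with Suv39h2, Kdm3a with Kdm3b and Setd1a with Setd1b. The largest shift away from 1 was that of Dnmt1 relative to Dnmt3a, at 0.159 (0.138 to 0.182). Ezh1 relative to Ezh2 followed at 3.06, Dnmt3a relative to Dnmt3b at 2.78 (1.52 to 5.20), and Kdm6a relative to Kdm6b at 2.69 (2.30 to 3.17). The pairs were chosen as paralogues or enzymes of 1 reaction, and several share a member.

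**Figure D4:**
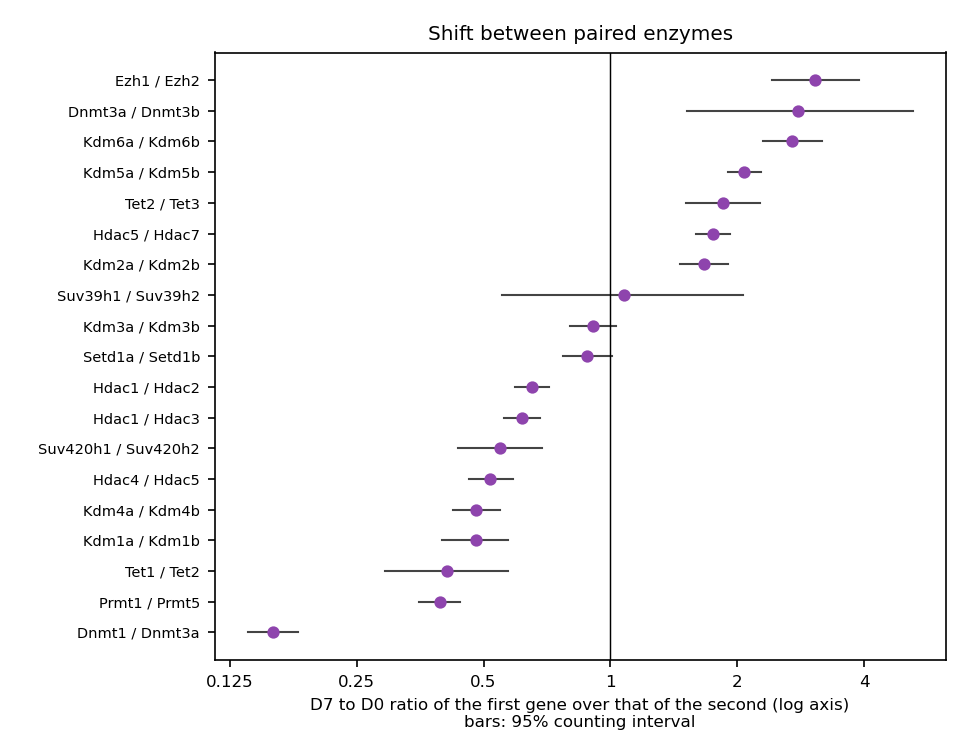
Shift between paired enzymes, that is, the D7 to D0 ratio of the first gene divided by that of the second (horizontal log axis, no unit), with bars for the 95% counting interval and a line at 1. Ezh1 over Ezh2 lies highest at 3.06, Dnmt1 over Dnmt3a lowest at 0.159, and 3 bars cross the line.

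By level, the enzymes of both libraries covered a wide range. The 5 most abundant at D0 were Prmt1, Hdac1, Ehmt2, Setd3 and Hdac2, and the same 5 genes led at D7 in the order Setd3, Hdac1, Hdac2, Prmt1 and Ehmt2. The summed level of all 66 was 917 FPKM at D0 and 779 FPKM at D7. At least 10 FPKM was reached by 24 enzymes at D0 and 25 at D7. Dnmt1 moved from place 22 to place 46, and Kdm6a from place 57 to place 38.

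The ratio of an enzyme went weakly with the length of its transcript. Of 21 enzymes with transcripts of 6 kb and over, 14 had a ratio above 1 (66.7%). Among all genes of that length with at least 1 FPKM in a library, 51.9% did. Of 22 enzymes under 3 kb, 9 had a ratio above 1 (40.9%), against 48.3% of such genes under 3 kb. Enzymes under 1 FPKM were not left out here. Across the 65 enzymes Spearman's rho was 0.28 and Pearson's r with log2 length was 0.26. Across 11900 genes of at least 1 FPKM in a library rho was −0.0028. These are descriptions across genes of 1 pair of libraries, and the mostly short Prmt transcripts and the long Mll and Tet transcripts take part in them.

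**Figure D5:**
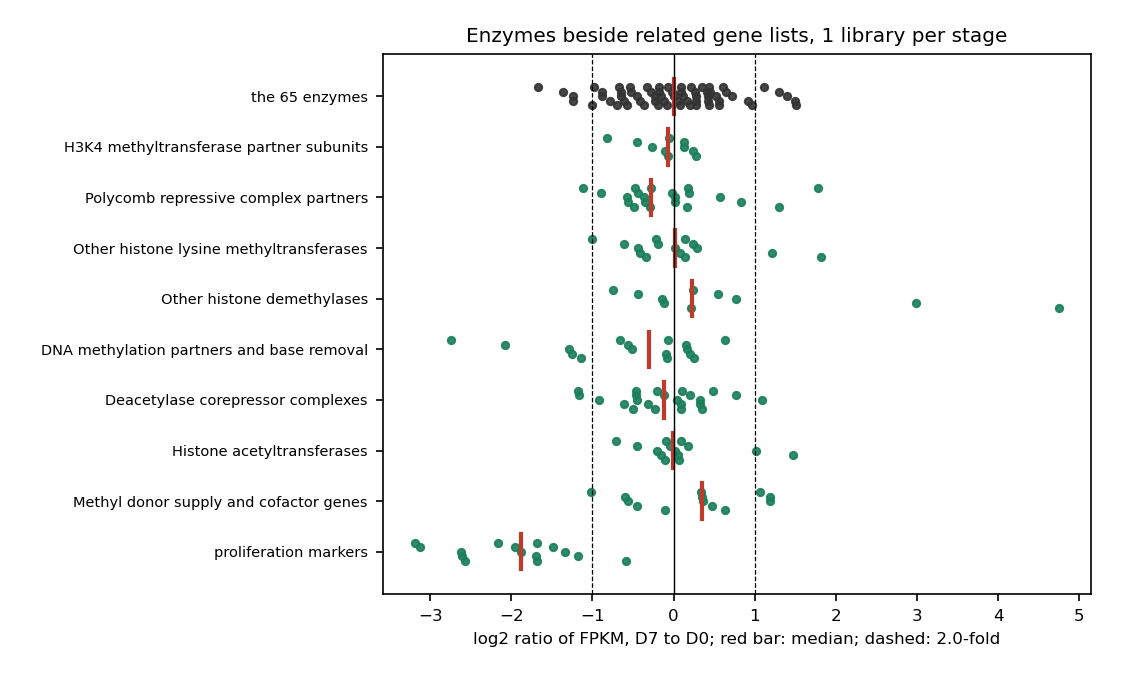
Log2 ratio of FPKM at D7 to D0 (horizontal axis) for the 65 enzymes and for lists of related genes, 1 point per gene above 0 in both libraries, with a red bar at each median and dashed lines at a 2.0-fold difference. The enzymes lie around 0 between −1.67 and 1.51, whereas the proliferation markers have a median of −1.89 and Hr and Jhdm1d stand far to the right.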

How the data were processed

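RNA-Seq of brown preadipocytes (D0) and brown adipocytes (D7) was analysed, with 1 library each. After read filtering and alignment to mm10 the authors deposited an FPKM value of every gene for each library. The paper's methods name SOAP2 as aligner and the submitters' processing notes name Bowtie2, and the use of strand in counting is not given in the sources used here. Of 27324 rows, 3963 held no value and were not used.

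Ratios were computed from the deposited FPKM values without a pseudocount or rescaling. The 602 single-exon genes of 600 bp or more gave the fragments. From each length 176 bp (D0) and 181 bp (D7) were taken. All of the 79 and 89 values not above 20 fragments then came out whole (tolerance 0.1 fragment). With shuffled lengths 18.75% and 20.62% did so. The bp taken off and the depth were fitted to make such values whole and were not refitted for shuffled lengths. These shares are therefore no independent check of the fit. Spliced genes took the length of their named transcript (62 of the 66 enzymes) or the longest coding one in GENCODE M21, which makes their fragments approximate. The 95% intervals are exact (Clopper-Pearson), PCR copies are not independent molecules, and a level of 3 fragments was taken as a limit. Of the 66 enzymes, 8 carried older symbols and were matched through RefSeq. RefSeq promoters were found for 56, at the start site nearest to the named transcript, or to the deposited locus for Dot1l, Kdm8 and Setd3. The nearest site lay 27570 bp away for Setd5 and 7310 bp away for Tet1, and both were kept in the shares. No p-value was possible with 1 library per stage. All enzymes are named, and other genes only from fixed lists by the 2.0-fold rule, at most 4 per list beyond examples given for contrast, which were chosen after their values were seen. Members and lists were chosen with earlier results of these data known. Some genes of the lists are not reported here. The steps were tested on simulated data. Computation was done in Python 3.11.15 with scipy 1.17.1, pandas 2.3.3 and numpy 2.4.6, and plots with matplotlib 3.10.9.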

Additional observations from a re-analysis of the deposited data

How the results depend on the processing

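No paired analysis was possible because each stage had 1 library, and no library could be left out for the same reason. With a pseudocount of 1 FPKM, 3 enzymes were called higher and 3 lower, and Hdac9, Kdm5d, Prmt3 and Tet2 lost their calls. With values under 0.01 FPKM set to 0.01 and each library divided by its median, 3 were higher and 13 lower, 71.2% of the enzymes were lower and their median log2 ratio was −0.36. That scaling moved the log2 median of all genes by −0.37, turned the direction of 14 enzymes with ratios from 1.00 to 1.27 (Tet1, Hdac3, Hdac5, Setd3 and Prmt10 among them), and gave Dnmt3a a ratio of 1.92. Requiring 1 FPKM in both libraries left 3 higher. A threshold of 1.5 gave 10 higher and 14 lower, and one of 4.0 gave 0 and 0. The shares of all genes called under the settings of this section are not given here, so these counts have no background. TPM, median centring, the upper quartile and a trimmed mean ratio kept the counts of calls within 1.5 times those reported. They turned only Hdac3, whose ratio was 1.00, and Hdac6 was called lower with TPM and the upper quartile. Prmt1, Dnmt1, Prmt2, Kdm6a and Suv420h2 kept their calls in all 8 pseudocounts, scalings and row sums. Of 520 enzyme ratios under these, 456 stayed within the counting interval and 64 did not. With the shortest coding transcript of at least 600 bp as length, 8 intervals changed between including and leaving out 1, that of Hdac9 among them. The omission of enzymes on X and Y was chosen after seeing the data. Depth limited Hdac9, Kdm4d, Dnmt3b, Dnmt3l, Suv39h2 and Setd4, and no value of this comparison has a replicate.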

Other observations

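Genes that supply the substrates of these enzymes were also measured. Of 16 genes for the methyl donor S-adenosylmethionine and for the cofactors of dioxygenases, 13 were above 0 in both libraries. Idh1, which makes the cofactor 2-oxoglutarate in the cytosol, was called higher, with 95.4 FPKM at D0 and 218 FPKM at D7 (2.29, 95% counting interval 2.20 to 2.37). D2hgdh, which removes the inhibitor 2-hydroxyglutarate, was called higher as well, with a ratio of 2.08 (1.80 to 2.41). Shmt2, the mitochondrial serine hydroxymethyltransferase, was called lower, with 37.5 and 18.5 FPKM (0.494, 0.451 to 0.539). Mat2a, which makes S-adenosylmethionine outside the liver, had 65.6 and 91.1 FPKM (1.39, 1.33 to 1.45), and Ahcy, which removes its product, had 40.4 and 29.6 FPKM (0.733, 0.683 to 0.786).

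The histone acetyltransferases, which oppose the deacetylases, had 2 of 14 genes called higher and 0 lower, with a median ratio of 0.992. Ncoa1, a coactivator of nuclear receptors, had 3.04 FPKM at D0 and 8.43 FPKM at D7 (2.78, 2.49 to 3.10). Kat2b had 7.82 and 15.7 FPKM (2.01, 1.84 to 2.21), while its paralogue Kat2a had 14.0 and 8.56 FPKM (0.613, 0.545 to 0.688). Crebbp and Ep300 were near 1, at 0.937 and 0.932.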
